A study of Danio rerio with 16 samples.

Results

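The genes described here are 8 regulators of the prospective forebrain and of the neural plate around it in zebrafish (Danio rerio): fezf1, fezf2, otx1, otx2a, otx2b, zic1, zic2a and emx3. They were listed by name, not by a threshold on measured values, but the list was drawn up with earlier results of these data known. The 8 symbols matched 9 of 32520 Ensembl genes in the count table. Symbols there are partly written in the style of the human ortholog, so otx2b was matched as OTX2. The symbol ZIC2 was shared by 2 genes, ENSDARG00000015554 and ENSDARG00000037178. Both were kept under their identifiers, since which of them is zic2a was not settled. All 9 genes passed the filter on low counts, although fezf1 and emx3 were at or near 0 counts at 8 hours post fertilization (hpf).

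Whole wild-type embryos were injected at 0 hpf with an LNA (locked nucleic acid), an antisense oligonucleotide with modified sugars. The knockdown groups received Bik-1 LNA, named for the endogenous retrovirus BHIKHARI, and the control groups received Scrambled LNA. Polyadenylated RNA was sequenced at 8, 11, 14 and 18 hpf in 2 replicates per group, which gives 8 groups and 16 libraries. The labels do not say whether replicates came from separate clutches or injections, so the p-values given here cover the spread among these libraries alone, which may be technical.

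The anterior neural plate is divided early into forebrain, midbrain and hindbrain territories. Otx homeobox genes mark the head end of the embryo from gastrulation and are needed for forebrain and midbrain. The zinc finger repressors Fezf1 and Fezf2 act within the forebrain territory and later in the olfactory system, telencephalon and diencephalon. The homeobox gene emx3 belongs to the dorsal telencephalon, while Zic zinc finger genes mark the edge of the neural plate, the dorsal neural tube and parts of the forebrain.

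Library totals ran from 4399855 to 7694887 counts. Levels are given as CPM, which are counts scaled to the library total as adjusted by the TMM normalization. RNA of the BHIKHARI long terminal repeats stood at 2807 and 2822 CPM in the controls at 8 hpf and at 677 and 751 CPM in the knockdown. Time was followed by the first principal component, with 65.9% of the variance. Knockdown replicate 2 at 11 hpf lay at -44.5 on it, on the side of earlier times, against -7.98 in knockdown replicate 1 and -4.02 and -26.6 in the controls. The knockdown libraries also lay earlier at 14 hpf (18.3 and 32.4 against 40.5 and 48.6) and at 18 hpf (114 and 110 against 120.2 and 122). At 8 hpf the groups overlapped, with -125 and -141 in knockdown replicates 1 and 2 and -118 and -138 in the controls. Compared by replicate number, the knockdown value was the lower of the pair at each of the 4 times. The part that a shift in developmental time has in the results below was not tested. Since whole embryos were sequenced, fewer forebrain cells and less RNA per cell cannot be told apart.

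In control embryos all 9 genes changed over the 4 times, as did 55.8% of the 17756 features tested (edgeR quasi-likelihood F-test at an adjusted p under 0.05 by the method of Benjamini and Hochberg, taken over all features, which is the test and threshold used throughout). Most were either high in the gastrula and declined or came on later, while zic1 held its level and rose at the last step. From 8 to 11 hpf 8 of the 9 passed the test, against 30.4% of all features. Of these, 6 were lower (12% of all features) and 2 higher (18.4%). From 11 to 14 hpf 3 passed (2.64% of all features) and from 14 to 18 hpf 4 passed (11.6%). The second of these counts was 1 without control replicate 2 at 11 hpf. The last was 0 without either control replicate at 14 hpf or without control replicate 2 at 18 hpf, and 2 without control replicate 1 at 18 hpf.

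The declining genes were the 3 Otx genes, both ZIC2 genes and, at the first step, fezf2. Control levels of otx2a were 118 and 139 CPM (8 hpf), 33.6 and 45.4 (11 hpf), 35.1 and 30.6 (14 hpf), and 31.7 and 30.4 (18 hpf). The libraries at 8 hpf stood well above the rest, and after 11 hpf no step of otx2a passed the test. Control levels of otx2b were 225 and 192 CPM (8 hpf), 127 and 145 (11 hpf), 65.6 and 68.0 (14 hpf), and 46.0 and 47.4 (18 hpf). This gene passed the test at every step, with log2 changes of -0.62 (SE 0.12, adjusted p = 0.0013), -1.03 (SE 0.12, adjusted p = 0.0004) and -0.52 (SE 0.13, adjusted p = 0.015). Control levels of otx1 were 213 and 259 CPM (8 hpf), 133 and 111 (11 hpf), 104 and 97.2 (14 hpf), and 65.1 and 76.6 (18 hpf).

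The genes that came on later were fezf1 and emx3. There was no count of fezf1 in the 2 controls at 8 hpf, where 3 counts correspond to 0.49 and 0.509 CPM. From 8 to 11 hpf fezf1 went from 0 to 12 counts over the 2 libraries. This was 3.85-fold higher when 3 counts per group replace the 0 and the 12 are taken as exact. The main rise of fezf1 came between 11 and 14 hpf, from 7 and 5 counts to 86 and 84 (log2 change 3.77, SE 0.64, adjusted p = 0.0059). The homeobox gene emx3 had 7 counts in control replicate 1 and 0 in replicate 2 at 8 hpf, and 310 counts over both at 11 hpf (log2 change 5.37, SE 0.52, adjusted p = 5.9e-06). In controls zic1 stayed between 37.9 and 60.4 CPM from 8 to 14 hpf and then rose to 85.5 and 99.4 CPM at 18 hpf (log2 change 1.19, SE 0.27, adjusted p = 0.011).

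**Figure D1:**
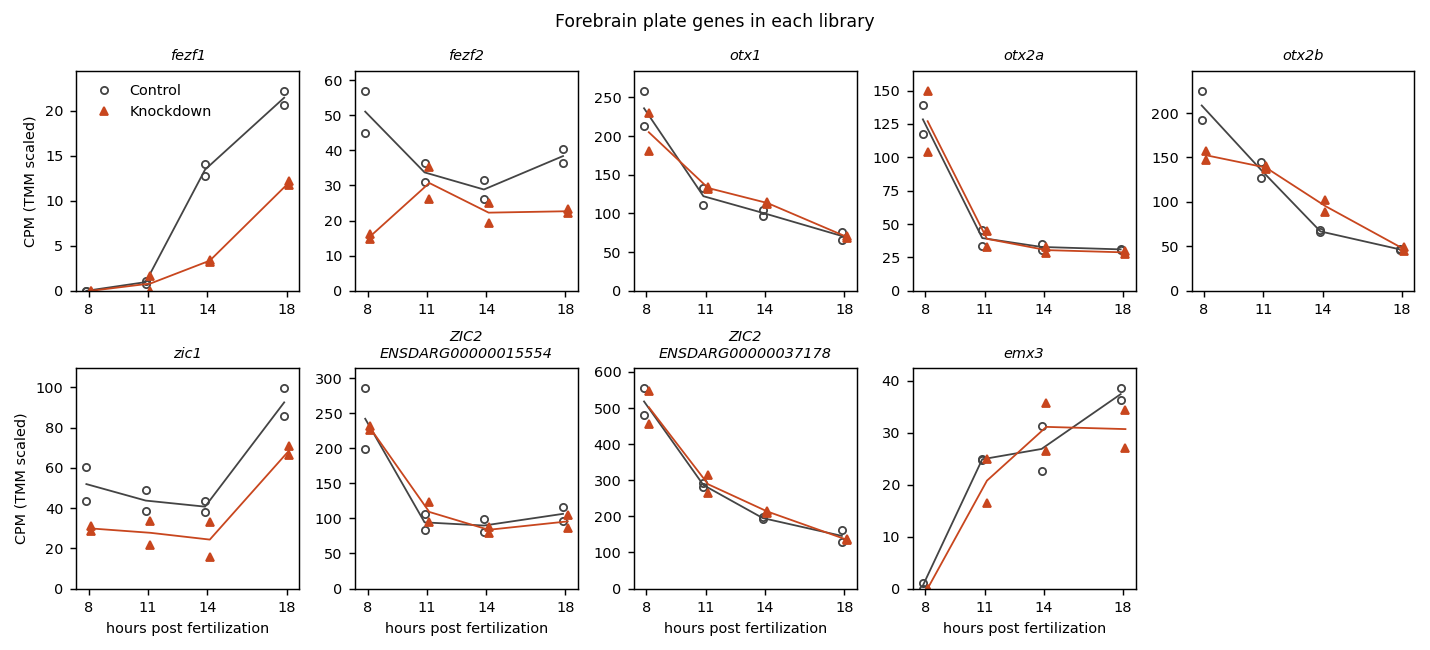
Level of each gene (vertical axes, CPM scaled by TMM, starting at 0) against time (hours post fertilization) in every library. Open circles are control and filled triangles knockdown libraries, and lines join the means of 2 replicates. The knockdown libraries for fezf2 at 8 hpf (14.8 and 16.1 CPM) lie below every control library of any time, and those of the ZIC2 pair, otx1 and otx2a lie close to the controls.

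With Bik-1 LNA, fezf2 was lower at 8 hpf, the only one of the 9 genes to pass the test at a single time, while 0.344% of all features passed at 8 hpf. Over the 4 times fezf2 and zic1 were lower on average. The other genes did not pass the test at any time. At 11, 14 and 18 hpf 0 of the 9 passed, where 0.00563%, 0.00563% and 0.0113% of all features did. The 1 feature that passed at 11 hpf and the 1 at 14 hpf were the BHIKHARI long terminal repeats. The 2 at 18 hpf were these repeats and the keratin gene krt18a.1. Log2 fold changes of the repeats at these times were -1.80 (SE 0.14), -2.03 (SE 0.14) and -1.52 (SE 0.15). At an unadjusted p under 0.05, 4 of the 9 were lower at 8 hpf (5.41% of all features), 1 at 11 hpf (2.73%), 2 at 14 hpf (3.42%) and 1 at 18 hpf (2.02%). Of the 4 at 8 hpf, emx3 rests on 7 counts in 1 control library. At the same unadjusted threshold 0 of the 9 were higher at 8 hpf (3.77% of all features), 0 at 11 hpf (1.9%), 1 at 14 hpf (2.16%), which was otx2b, and 0 at 18 hpf (2.48%). By the DESeq2 Wald test 0 of the 9 passed at these 3 later times as well. With a replicate block within each time, otx2b also passed at 8 hpf (adjusted p = 0.00573) and 14 hpf (adjusted p = 0.00757), fezf1 at 14 hpf (adjusted p = 0.00445) and fezf2 at 18 hpf (adjusted p = 0.0421), while the average of zic1 no longer passed (adjusted p = 0.0509). Under that block 3.50%, 1.77%, 0.659% and 11.8% of all features passed at 8, 14 and 18 hpf and on average.

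Levels of fezf2 at 8 hpf were 57.0 and 45.1 CPM in the controls (348 and 265 counts) and 16.1 and 14.8 CPM in the knockdown (89 and 91 counts). Both knockdown libraries lay below both controls, as did 17.8% of all features. They also lay below all 8 control libraries of the series, the lowest of which had 26.0 CPM at 14 hpf. So did the knockdown libraries at 14 and 18 hpf, which makes 6 in all. The share of features below all 8 controls was not counted. At 8 hpf the log2 fold change of fezf2 came to -1.72 (SE 0.21, 95% interval -2.20 to -1.25, adjusted p = 0.00074), or 30.3% of the control level. The call held without each of the 16 libraries in turn, with adjusted p between 0.00015 and 0.021. It was lost when the 4 libraries at 8 hpf were fitted alone (log2 fold change -1.72, adjusted p = 0.098).

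At 11 hpf the fezf2 levels of 35.2 and 26.2 CPM in the knockdown lay around the control levels of 31.0 and 36.4. At 14 hpf they were 19.4 and 25.1 CPM against 31.7 and 26.0, and at 18 hpf 23.3 and 22.1 CPM against 36.3 and 40.4. The groups overlapped at 11 hpf, were narrowly apart at 14 hpf and were apart at 18 hpf, with the knockdown lower. Of all features 21.8% and 19.9% lay below both controls at 14 and 18 hpf. The log2 fold changes were -0.14 (SE 0.20), -0.37 (SE 0.21) and -0.76 (SE 0.20, adjusted p = 0.99, unadjusted p = 0.0016). In controls fezf2 fell from 8 to 11 hpf (log2 change -0.60, SE 0.20, adjusted p = 0.029), whereas the knockdown means of 2 replicates were 15.4 CPM (8 hpf) and 30.7 CPM (11 hpf), a step that was not tested.

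Averaged over the 4 times, the log2 fold change of fezf2 came to -0.75 (SE 0.10, 95% interval -0.98 to -0.51, adjusted p = 0.0014), where 1.63% of all features passed. This average was called without each of the 16 libraries in turn. The effect at 8 hpf minus the mean effect of the 3 later times was -1.30 on the log2 scale (SE 0.24, unadjusted p = 4.2e-05, adjusted p = 0.17), which did not pass over all features (0.00563% did). It passed without knockdown replicate 2 at 11 hpf (adjusted p = 0.034).

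The related gene fezf1 could be compared only from 11 hpf, since all 4 libraries at 8 hpf had 0 counts. At 11 hpf it had 1.14 and 0.788 CPM in the controls and 1.62 and 0 CPM in the knockdown. At 14 hpf it had 14.1 and 12.8 CPM in the controls and 3.23 and 3.46 CPM in the knockdown (86 and 84 against 15 and 20 counts), and at 18 hpf 22.2 and 20.6 against 11.8 and 12.2 CPM. The groups overlapped at 11 hpf, and at 14 and 18 hpf every knockdown library lay below every control of the same time. Of all features 21.8% and 19.9% did so. The knockdown levels of 18 hpf lay just below the control levels of 14 hpf.

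The log2 fold change of fezf1 at 14 hpf, -2.00, had an SE of 0.55 and a 95% interval of -3.26 to -0.73. It did not pass over all features (unadjusted p = 0.0028, adjusted p = 0.64). By 18 hpf its log2 fold change was -0.83 (SE 0.48, 95% interval -1.95 to 0.28). Over 11, 14 and 18 hpf its mean log2 fold change was -1.08 (SE 0.38, adjusted p = 0.27). The knockdown replicates at 11 hpf had 10 and 0 counts, and this mean was -2.81 without replicate 1 and -0.70 without replicate 2. The value without replicate 1 has no estimable fold behind it at 11 hpf, since the knockdown library left there had 0 counts. Without knockdown replicate 1 or replicate 2 at 11 hpf the adjusted p at 14 hpf was 0.032 or 0.030.

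The telencephalic gene emx3 did not pass the test at any time. For emx3 the controls had 24.8 and 24.9 CPM (11 hpf), 31.2 and 22.5 (14 hpf), and 36.3 and 38.5 (18 hpf). The knockdown had 25.0 and 16.5 CPM (11 hpf), 26.5 and 35.7 (14 hpf), and 27.0 and 34.3 (18 hpf). The groups overlapped at 11 and 14 hpf and were narrowly apart at 18 hpf. The mean log2 fold change over these times was -0.11 (SE 0.19, 95% interval -0.54 to 0.31). That interval leaves room for the change of fezf2 over the same times, -0.42 (SE 0.12, adjusted p = 0.15), which did not pass. At 8 hpf emx3 had 7 counts in 1 control and none in the other control or in the knockdown. This was 2.27-fold lower when 3 counts replace the 0 of the knockdown group and the 7 are taken as exact. The value rests on 1 library, and the counting error of the 7 is not covered.

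**Figure D2:**
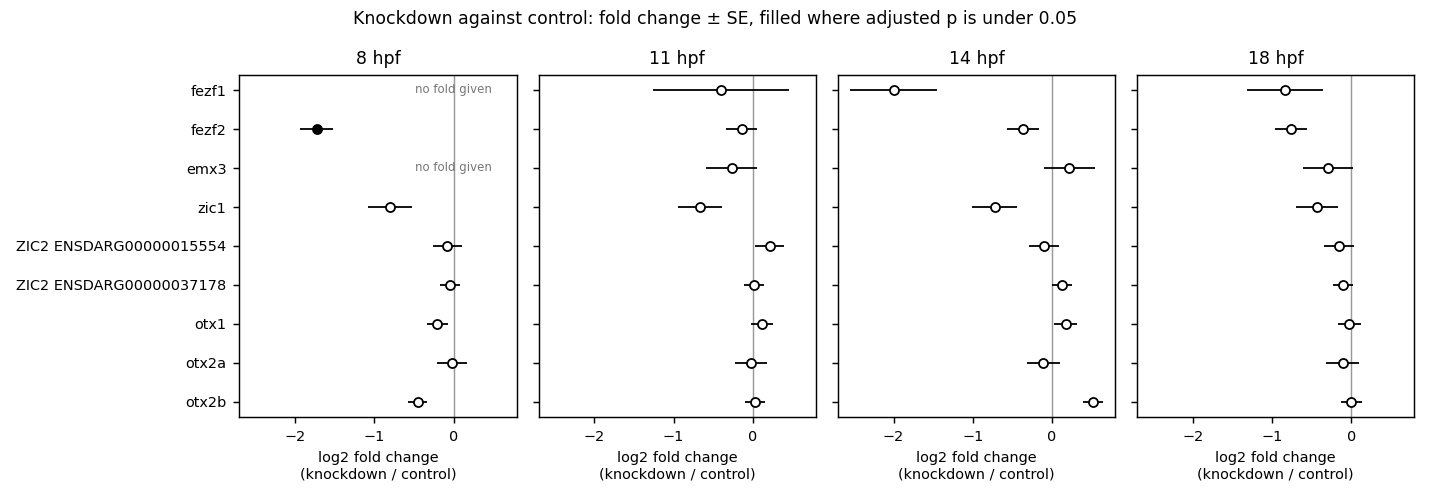
Log2 fold change of knockdown over control (horizontal axis) with its SE for each gene at each time, from edgeR. The filled point, fezf2 at 8 hpf (-1.72), is the one that passed an adjusted p of 0.05, and genes at or near 0 counts at 8 hpf have no fold there. The ZIC2 pair, otx1 and otx2a lie at most 0.21 from 0 at every time.

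Among the Zic genes, zic1 was lower with Bik-1 LNA and both ZIC2 genes were close to the controls. Levels of zic1 at 8 hpf were 60.4 and 43.4 CPM in the controls and 31.3 and 28.4 CPM in the knockdown. At 11 hpf they were 38.7 and 48.7 against 33.6 and 21.8 CPM, at 14 hpf 43.5 and 37.9 against 15.7 and 32.9 CPM, and at 18 hpf 85.5 and 99.4 against 66.2 and 70.8 CPM. At each of the 4 times both knockdown libraries lay below both controls, as did 17.8%, 13.7%, 21.8% and 19.9% of all features at 8, 11, 14 and 18 hpf. The 6 knockdown libraries from 8 to 14 hpf also lay below all 8 controls of the series, whose lowest value was 37.9 CPM. The shares of features that lay below at all 4 times, or below all 8 controls, were not counted.

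The log2 fold changes of zic1 were -0.80 (SE 0.28) at 8 hpf, -0.67 (SE 0.28) at 11 hpf, -0.73 (SE 0.29) at 14 hpf and -0.44 (SE 0.27) at 18 hpf, with adjusted p = 0.36 at 8 hpf. None passed alone. Their average was -0.66 (SE 0.14, 95% interval -0.98 to -0.34, adjusted p = 0.029), or 63.4% of the control level. The effect at 8 hpf differed from that of the later times by -0.19 (SE 0.32, 95% interval -0.93 to 0.55). The average sat near the threshold: it was called in 5 of the 16 fits that left out a library, with adjusted p between 0.0028 and 0.086. It was lost without control replicate 1 or either knockdown replicate at 8 hpf, without replicate 2 of either group at 11 hpf, without either control at 14 hpf and without any library at 18 hpf.

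The ZIC2 gene ENSDARG00000037178 had 482 and 555 CPM in the controls and 457 and 548 CPM in the knockdown at 8 hpf, and 162 and 129 against 137 and 134 CPM at 18 hpf. The ZIC2 gene ENSDARG00000015554 had 286 and 199 against 232 and 227 CPM at 8 hpf, and 96.3 and 117 against 86.4 and 105 CPM at 18 hpf. At both times the groups overlapped for both genes. They also overlapped at 11 hpf, and at 14 hpf only ENSDARG00000037178 stood narrowly apart, with 210 and 216 CPM in the knockdown above 198 and 192 CPM in the controls. Their average log2 fold changes were -0.00 (SE 0.06, 95% interval -0.15 to 0.15) and -0.03 (SE 0.09, 95% interval -0.25 to 0.19), so that a change of the size of zic1 lay outside both intervals. Reads shared between the paralogs could be split by the counting, so their levels were also summed. The sums overlapped at 8 hpf, at 768 and 753 CPM in the controls and 689 and 775 CPM in the knockdown, and at 11 and 14 hpf. At 18 hpf both knockdown sums lay below both controls, at 223 and 239 against 259 and 246 CPM. Of all single features 19.9% did so at that time.

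The remaining Zic genes reported here, zic4, zic5 and zic6, form a list of 3, of which 0 passed in any knockdown comparison. Single genes of this list are named after their values were seen. Average log2 fold changes were -0.60 (SE 0.19, adjusted p = 0.14) for zic4, -0.57 (SE 0.20, adjusted p = 0.17) for zic6 and -0.02 (SE 0.14) for zic5. In the RefSeq annotation of the GRCz12tu assembly zic1 and zic4 are neighbours with 0 protein-coding genes between them. The neighbour of zic1, zic4, had 6.71 and 3.91 CPM in the controls at 8 hpf and 3.07 and 1.62 CPM in the knockdown, and 25.5 and 24.1 against 15.6 and 20.4 CPM at 18 hpf. At 14 hpf the groups of zic4 overlapped, with means of 6.81 CPM (SD 2.20) in the controls and 6.33 CPM (SD 2.56) in the knockdown. The log2 fold change of zic4 at that time was -0.09 (SE 0.39). The gene zic6 had 5.39 and 4.89 against 2.11 and 2.45 CPM at 11 hpf, whereas at 18 hpf its groups overlapped, at 24.2 and 19.2 against 23.6 and 28.9 CPM.

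**Figure D3:**
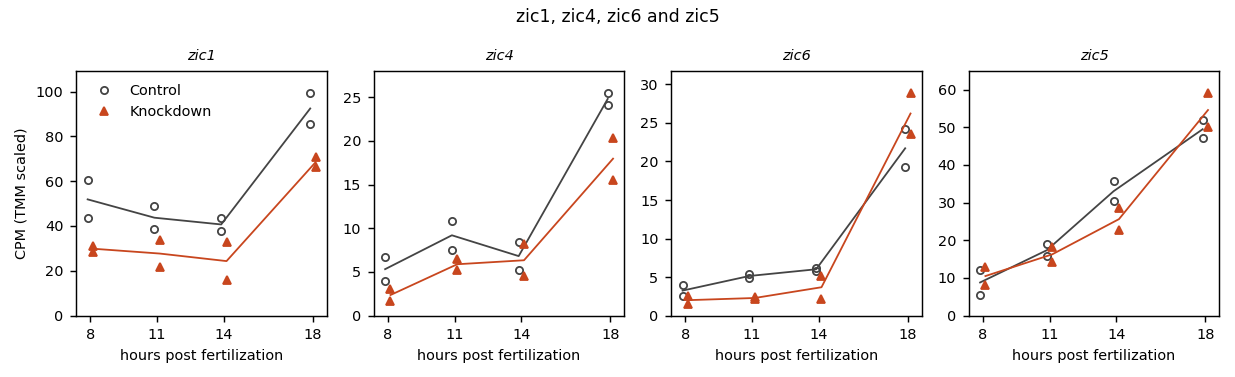
Level of zic1, zic4, zic6 and zic5 (vertical axes, CPM scaled by TMM, from 0) against time in hours post fertilization, with open circles for control and filled triangles for knockdown libraries and lines through the means of 2 replicates. For zic1 both knockdown libraries lie below both controls at all 4 times, while for zic5 the average log2 fold change was -0.02.

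No Otx gene passed the test at a single time or on average, and the intervals around their averages were narrow. Their average log2 fold changes were 0.02 (SE 0.07, 95% interval -0.15 to 0.18) for otx1, -0.06 (SE 0.10, 95% interval -0.29 to 0.17) for otx2a and 0.02 (SE 0.06, 95% interval -0.12 to 0.17) for otx2b. Each interval excluded the fold change of -0.75 found for fezf2.

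Within this average the fitted direction of otx2b differed between times, a difference that did not pass the test (adjusted p = 0.88). The gene had 225 and 192 CPM in the controls and 158 and 147 CPM in the knockdown at 8 hpf, and 65.6 and 68.0 against 103 and 88.3 CPM at 14 hpf. The groups did not overlap at either time, with the knockdown lower at 8 hpf and higher at 14 hpf. At 11 hpf (127 and 145 against 140 and 137 CPM) and at 18 hpf (46.0 and 47.4 against 49.1 and 44.3 CPM) the knockdown values lay within or around those of the controls. The log2 fold changes were -0.45 (SE 0.12, unadjusted p = 0.0017, adjusted p = 0.16) at 8 hpf and 0.51 (SE 0.13, unadjusted p = 0.0008, adjusted p = 0.55) at 14 hpf, and neither passed. The knockdown level at 14 hpf lay between the control levels of 11 and 14 hpf.

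For otx1 the knockdown had 180 and 230 CPM (8 hpf), 132 and 134 (11 hpf), 112 and 115 (14 hpf), and 68.5 and 71.0 (18 hpf). For otx2a it had 104 and 150 CPM (8 hpf), 32.9 and 44.9 (11 hpf), 32.7 and 28.2 (14 hpf), and 30.1 and 27.4 (18 hpf). The groups overlapped at 3 of the 4 times for each of these genes, and stood narrowly apart for otx1 at 14 hpf, with the knockdown higher, and for otx2a at 18 hpf, with the knockdown lower.

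Across the 9 genes, the number with both knockdown libraries below both controls was 3 at 8 hpf (17.8% of all features), 1 at 11 hpf (13.7%), 3 at 14 hpf (21.8%) and 5 at 18 hpf (19.9%). Those above both controls numbered 0 at 8 hpf (16.7%), 0 at 11 hpf (13.3%), 3 at 14 hpf (21.2%) and 0 at 18 hpf (20.2%). At 18 hpf the 5 genes below were fezf1, fezf2, zic1, emx3 and otx2a, and the median log2 fold change of the 9 was -0.16 against 0 for all features. Over 11, 14 and 18 hpf 0 of the 9 passed (0.315% of all features). That count changed when knockdown replicate 1 at 11 hpf or knockdown replicate 2 at 14 hpf was left out. Without the first of these, fezf1 had 0 counts in the knockdown at 11 hpf.

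Some other genes of the anterior neural plate and eye field were lower as well. Of 23 tested genes of this list, 3 passed at 8 hpf, all lower, where 0.344% of all features passed: the PAX6 gene ENSDARG00000045936 (log2 fold change -1.30, SE 0.22, adjusted p = 0.014), the eye field gene rx3 (-2.28, SE 0.40, adjusted p = 0.024) and the Six-family gene six7 (-1.43, SE 0.27, adjusted p = 0.037). Levels of rx3 at 8 hpf were 32.3 and 24.0 CPM in the controls and 6.87 and 4.71 CPM in the knockdown. Over the 3 later times, where 0.315% of all features passed, hmx4, rx2 and the SIX3 gene ENSDARG00000054879 were lower, with log2 fold changes of -2.27 (SE 0.40, adjusted p = 0.033), -2.13 (SE 0.38, adjusted p = 0.032) and -1.07 (SE 0.17, adjusted p = 0.026). Averaged over the 4 times, 2 genes of the list passed, both lower, where 1.63% of all features did. These were rx3 (-1.36, SE 0.20, adjusted p = 0.0035) and the same SIX3 gene (-1.09, SE 0.15, adjusted p = 0.0028). The median of the list at 8 hpf was -1.22 over 18 genes, with 2 genes that had 0 counts in the knockdown at their bound and 5 genes left out at or under 3 counts in both groups. For all features the median was 0.0053 at 8 hpf and 0.0032, 0 and 0 at the later times. At 11, 14 and 18 hpf the medians of the tested genes of the list were -0.75, -0.64 and -0.37, with 0 passing. The fitted values of 5 genes lay above 0 at 8 hpf and those of 7 at 14 hpf. These comparisons share their control libraries with those of fezf2 and zic1.

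**Figure D4:**
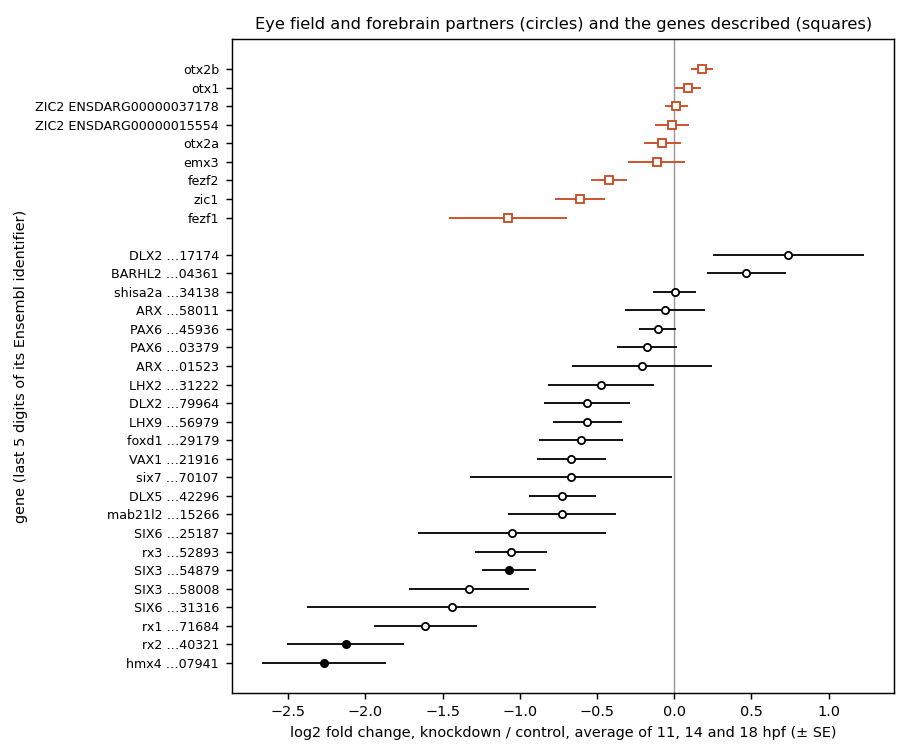
Log2 fold change of knockdown over control averaged over 11, 14 and 18 hpf (horizontal axis) with its SE, for 23 anterior neural plate and eye field genes (circles) and the 9 genes described here (squares). Filled symbols passed an adjusted p of 0.05, which were hmx4, rx2 and a SIX3 gene. The squares run from -1.08 for fezf1 to 0.18 for otx2b.

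Genes of other roles were examined beside these. Of 20 Wnt signals and antagonists of anterior patterning, 1 passed at 8 hpf, where 0.344% of all features did. This was tcf7l1b, a repressor of Wnt targets (log2 fold change -1.06, SE 0.17, adjusted p = 0.0089). It also passed on average (-0.51, SE 0.09, adjusted p = 0.0051), where 1.63% of all features did. The median of the Wnt list at 8 hpf was -0.19, against 0.0053 for all features. Of 18 midbrain and hindbrain genes 1 passed on average, against 1.63% of all features. It was the IRX1 gene ENSDARG00000056594, higher by 0.31 (SE 0.05, adjusted p = 0.0074). The median of these 18 was -0.10, against 0.0094 for all features. Of 5 tested paralogs of the Otx and Emx genes and their relatives 0 passed.

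As broad markers of the neural plate, 8 SoxB and Sox11 genes were looked at. Whether their RNA was confined to neural tissue was not tested, so their levels do not measure the share of that tissue. Of these 8 genes 0 passed in any knockdown comparison. At 8 hpf 6 of them had fitted values below 0 and 2 above, with a median log2 fold change of -0.26 (0.0053 for all features). Their summed level at 8 hpf was 1621 and 1752 CPM in the controls against 1454 and 1740 CPM in the knockdown. The groups overlapped at 8 and 11 hpf, and the knockdown sums lay above both controls at 14 hpf (1683 and 1742 against 1588 and 1640 CPM) and at 18 hpf (1909 and 1981 against 1883 and 1900 CPM). The 7 genes matched to a proneural list, in which the symbol DLD may not stand for a Delta gene, had 0 passing. Among 8 epidermal markers the keratin genes krt18a.1 (0.40, SE 0.05, adjusted p = 0.0013) and krt8 (0.32, SE 0.06, adjusted p = 0.013) were higher on average. The TP63 gene was lower (-0.37, SE 0.09, adjusted p = 0.04), where 1.63% of all features passed. At 18 hpf krt18a.1 passed alone among them (0.84, SE 0.10, adjusted p = 0.0036), where 0.0113% of all features passed. Over the 3 later times both keratin genes passed, where 0.315% of all features did. The summed level of the 8 markers at 8 hpf was 12460 and 13846 CPM in the controls and 12096 and 15524 CPM in the knockdown, and no epidermal marker was at 0 in any library. Markers of muscle (11 genes), notochord (7), endoderm (5), blood and vessel (6), hatching gland (4) and germ cells (5) had 0 passing in the knockdown comparisons. Summed blood and vessel markers at 11 hpf were 112 and 47.0 CPM in the controls and 81.5 and 18.7 CPM in the knockdown, with the lowest value again in knockdown replicate 2. Of the 32 summed levels (8 marker lists at 4 times), 21 overlapped between the groups. Of all single features 13.7% to 21.8% lay below both controls at a given time, and 13.3% to 21.2% above. Both knockdown sums lay below both controls for notochord at 14 and 18 hpf and for muscle and for blood and vessel at 14 hpf. Sums weigh the most abundant genes most. Of the 7 notochord genes, 4 had fitted values above 0 at 14 hpf and 4 at 18 hpf, with median log2 fold changes of 0.25 and 0.06. Both knockdown sums lay above both controls for hatching gland at 14 and 18 hpf, for endoderm at 18 hpf, for epidermis and germ cells at 11 hpf and for the neural list as given. The part of these marker levels in the results for the forebrain genes was not tested.

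Genes whose log2 CPM ran most like each of the 9 over the 16 libraries were taken from 13347 genes with a symbol and a mean of at least 1 CPM. These correlations (Pearson's r) describe libraries that share the time course. For fezf2 they were ANKHD1 (0.889), ANKS3 (0.864) and BIRC6 (0.856), and for zic1 MPP7 (0.897), ELMO1 (0.893) and FGF13 (0.876). Over the 8 control libraries alone those of fezf2 were lower, at 0.653, 0.649 and 0.250, and those of zic1 were 0.963, 0.921 and 0.819. The other 7 genes had closer matches. These were DMRTA2 (0.996), zbtb16b (0.995) and hs3st3b1b (0.992) for emx3, and SLC29A2 (0.983), ptk2ab (0.975) and INSM1 (0.975) for fezf1. Those of otx1 were dnmt3bb.2 (0.988), nnr (0.987) and RASL11B (0.985), those of otx2a VRTN (0.992), HMGB2 (0.991) and sox32 (0.985), and those of otx2b irx7 (0.972), hnrnpl2 (0.969) and elavl1a (0.964). For ZIC2 ENSDARG00000015554 they were MID1IP1 (0.967), ISM1 (0.965) and TNRC6A (0.956), and for ZIC2 ENSDARG00000037178 SMU1 (0.993), admp (0.992) and HNRNPAB (0.991).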

How the data were processed

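The authors deposited raw read counts, not normalized, of Ensembl genes and transposable element families in 16 libraries. STAR and GRCz11 are named in the submitters' processing notes. For their versions, the counting program and its strand setting: not given in the sources used here. Symbols were taken from a table of Ensembl identifiers, which named 29201 of 32520 genes.

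Counts of genes and 1036 families were analysed together with edgeR 4.0.16 in R 4.3.3 (filterByExpr on the 8 groups, TMM, robust quasi-likelihood F-test, 1 mean per group, 8 residual degrees of freedom). The filter left 17756 features, 16894 genes and 862 families. The biological coefficient of variation was 0.177. Adjusted p-values are Benjamini-Hochberg values over all features at a threshold of 0.05. The 95% intervals were built from the SE of the same fit with 8 degrees of freedom. The F-test also draws on the spread of other features, so the intervals are wider than its p-values imply. CPM values were scaled by TMM. Bounds and floors used 3 counts and cover only the counting error of a group at 0. Counts of the other group were taken as exact. Alternatives were other scalings, no filter, genes alone, DESeq2 1.42.0, groups fitted alone, a replicate block and leaving out each library. Replicates differed beyond sampling noise in all 8 groups.

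The genes and lists were chosen with earlier results of these data known. All members reported were named, and results of some genes are not reported here. From other lists, called genes were named, at most 3 with the lowest p per comparison, and for likeness the 3 closest genes by Pearson's r of log2 CPM with a prior count of 2. The procedure was tested on simulated data. Sequences were not used here.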

Additional observations from a re-analysis of the deposited data

Results flagged for a closer look

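The genes described were searched for groups that stood apart in opposite directions at different times, and otx2b was flagged. Every knockdown library of otx2b lay below every control at 8 hpf and above every control at 14 hpf. Of all features 17.8% lay below at 8 hpf and 21.2% above at 14 hpf, and the share that did both was not counted. The log2 fold change at 14 hpf was 0.96 higher than at 8 hpf. The test that the effect differs between the 4 times gave an unadjusted p of 0.00048 and an adjusted p of 0.88 (edgeR), so it did not pass over all features, of which 0 passed, with 468 at an unadjusted p under 0.05.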

How the results depend on the processing

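The fold changes of single genes were recomputed in 24 fits. Of 1133 values with an alternative, 1075 kept their side of the threshold and, where uncalled or called in both fits, stayed within 1 SE of the main value. Another 25 kept their side but moved by more than 1 SE, 13 lost the call and 20 gained it. Of called values 0 changed sign, while 62 uncalled values did. Counts of the 9 genes that passed depended on the setting as follows. Without the low-count filter 2 passed at 8 hpf (1.19% of all features), 1 at 14 hpf (0.569%), 3 over the 3 later times (2.85%), and 1 each for the difference of 8 hpf from the later times (0.365%) and between all times (0.303%). With DESeq2 1 passed over the later times (zic1, 0.991% of all features) and 1 for the difference of 8 hpf (fezf2, 0.0788%), and 2 from 14 to 18 hpf in controls (10.7%), as with RLE scaling (11.5%). With the groups compared fitted alone the counts were 0 at 8 hpf (0.0355%), 1 at 14 hpf (0.395%) and 1 at 18 hpf (0.738%). The cause was not tested.

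Leaving out each library gave counts of 1 to 1 at 8 hpf, 0 to 1 at 14 hpf, 0 to 0 at 11 and 18 hpf, 1 to 2 on average over 4 times, 0 to 3 over the later times, 0 to 1 for the difference of 8 hpf and 0 to 0 between times. In controls the ranges were 6 to 8 from 8 to 11 hpf, 1 to 3 from 11 to 14 hpf, 0 to 4 from 14 to 18 hpf and 8 to 9 over time. The lone library left in a group is then assumed to vary like the others.

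Libraries with the same replicate number deviated together with correlations of 0.321, 0.495, 0.163 and 0.075 at 8, 11, 14 and 18 hpf over all features tested, and of 0.557, 0.694, 0.286 and 0.108 over features above 10 CPM. By the first set the numbers fell short of pairing the samples at 18 hpf, and the fit without a block was kept, whereas by the second every time exceeded 0.1. With a replicate block within each time, 2 genes passed at 8 hpf (fezf2 and otx2b), 2 at 14 hpf (fezf1 and otx2b), 1 at 18 hpf (fezf2), 1 on average (fezf2, with zic1 at adjusted p = 0.0509), 2 over the later times, 2 for the difference of 8 hpf and 2 between times. Of all features 3.50%, 1.77%, 0.659%, 11.8%, 8.53%, 0.760% and 0.535% passed in these comparisons under the block.

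Depth limits fezf1 and emx3 at 8 hpf, where at most 7 counts were found in a library. With 2 replicates per group the median SE of a log2 fold change over all features tested was 0.34 at 8 hpf, so small changes of a typical feature were not detectable. Leaving out fezf1 and emx3, the SE of the genes described ran from 0.12 (otx2b) to 0.28 (zic1) at 8 hpf.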
